A study of Mus musculus with 26 samples.

Results

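Chemokines, cytokines and cytokine receptors form the set of 40 genes described here, taken by name from a fixed list among the 45318 genes of the RNA-seq count files. Of the 40, 31 had enough counts to be tested. The cells were 4T1, a mammary carcinoma line of BALB/c mice with the triple-negative phenotype, grown in culture. MaTAR25 is a nuclear long non-coding RNA, listed in the count files as 1200007C13Rik, and the study compared cells with and without it to find the genes that change with its loss. Control cells received Cas9 with a sgRNA against Renilla luciferase and gave 2 libraries. MaTAR25 KO1 (3 libraries) and MaTAR25 KO2 (4 libraries) were each a clone grown from a single sorted cell with a deletion over the MaTAR25 start site. The paper describes its controls as single-cell clones too, chosen by qRT-PCR for a MaTAR25 level near that of the parental line. The labels do not say whether both control libraries came from the same clone. The labels do not say that the libraries of a group came from separate cultures, so the p-values measure the spread between libraries, which may be technical, and what belongs to a clone cannot be told apart from what belongs to the deletion.

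Chemokines are small secreted proteins that direct the movement of leukocytes through G protein-coupled receptors. CXC chemokines with the ELR motif, which bind CXCR2, draw neutrophils. Colony-stimulating factors govern the growth and survival of myeloid cells. Members of the IL-1 and TNF families act through MyD88 and TRAF adaptors on NF-kappaB, a transcription factor that itself drives many chemokine genes, and the IL-6 family signals through gp130 (Il6st), JAK kinases and STAT3. Mammary carcinoma cells of this line are known for secreting G-CSF and for the neutrophilia of the mice that carry them.

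The count of reads on genes ranged from 25367211 to 61110585 per library, and levels are given as CPM, which are counts scaled to 1 common library size with TMM factors. A gene was called when its adjusted p was below 0.1 in edgeR's quasi-likelihood test over the 15023 genes with enough counts, and every adjusted p below comes from this test with Benjamini-Hochberg adjustment. The deletion was visible in the counts, with 35 and 30 counts of MaTAR25 in control cells and 0 to 11 in the KO libraries. Of 8 mammary epithelial markers, 7 passed the filter, and Krt5 was at 0 in every library. The summed level of these markers was 3725 to 3911 CPM in control, 5063 to 7337 in KO1 and 2197 to 4541 in KO2. Krt7 and Krt8 rose in KO1, by 1.89 and 1.32 on the log2 scale (adjusted p = 0.00468 and 0.0232), while Cdh1 fell in KO2 by a log2 fold change of -0.85 (adjusted p = 0.0105) and Epcam was called nowhere. The table of KO2 replicate 2 repeats every gene 3 times with the same value, which was taken once.

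With both clones taken as 1 group, 6 members were called against control. These were Cxcl5 and Tnfsf9, which rose, and Cxcl16, Il23a, Il6st and Il1r1, which fell, or 19.4% of the members tested beside 22.6% of all genes tested. In KO1 alone, 15 members were called (48.4%), beside 31.6% of all genes. Of these, 9 rose, a direction called in 15.9% of all genes, and 6 fell, a direction called in 15.7%. In KO2 alone, 10 members were called (32.3%, beside 31.4% of all genes), of which 3 rose and 7 fell. KO1 and KO2 were compared with the same 2 control libraries. The median log2 fold change of the members was 0.88 in KO1 and -0.19 in KO2, while that of all genes tested was 0.02 and 0.03. These medians include 4 members, named below, with under 10 control counts. Over genes with at least 10 counts in every library, the medians of 24 members were 0.31 and -0.37, beside 0.0024 and 0.022 for all genes. The clones were also compared with each other, and 13 members differed between them (41.9%, beside 19.6% of all genes), 3 higher in KO2 (10.2% of all genes) and 10 lower in KO2 (9.43% of all genes). Among the members tested, Cxcl2, Cxcl3, Cxcl9 and Il33 had under 10 control counts in all and passed the filter only through KO libraries, so the filter itself chose them for a high KO level and their calls against control are not read as results. Without them 6 members were called in KO against control, 12 in KO1 (6 that rose and 6 that fell), 10 in KO2 and 13 between the clones.

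**Figure D1:**
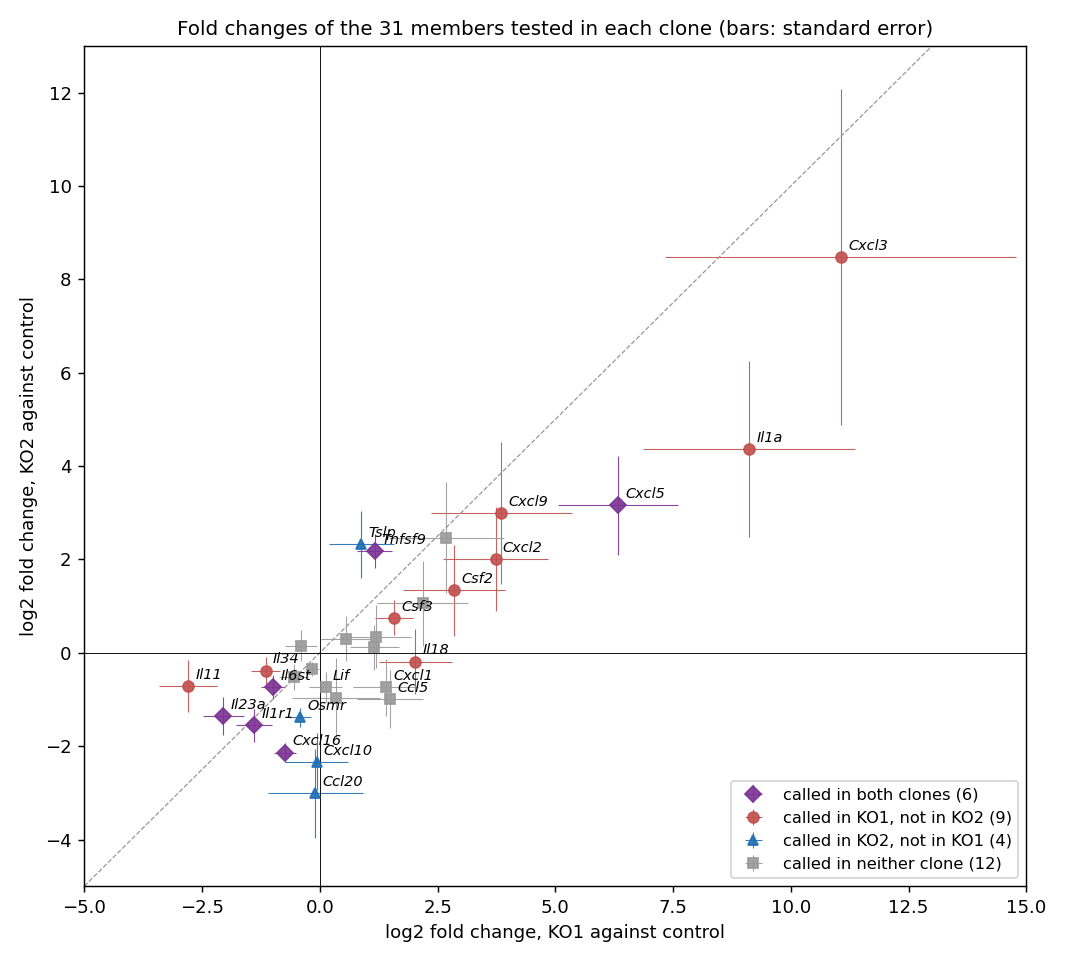
Log2 fold change against control of the 31 members tested, with KO1 on the horizontal axis and KO2 on the vertical axis. Bars are standard errors, the dashed line marks equal values, and both axes share the 2 control libraries. Cxcl5, Cxcl16, Il23a, Il6st, Il1r1 and Tnfsf9 were called in both clones and lie in the same direction in each. The share of all genes called in both clones was not counted, and with shared control libraries the 2 fold changes are not independent. Cxcl5, Il1a and Cxcl3 lie below the dashed line, with larger fitted values in KO1. Cxcl3 passed the filter only through KO libraries.

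The calls rested on few control libraries. With either control library left out, edgeR called 0 members in KO against control (5 and 6 at an unadjusted p under 0.05), 2 and 5 in KO1 and 4 and 4 in KO2. A call against control described below as kept in every alternative was also made without each control library. For KO2 against KO1, only libraries of the clones were left out.

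Among the neutrophil attractants, Cxcl5 (the mouse chemokine also known as LIX) had the highest level per exon length in KO1. In KO2 its mean of 28.2 ± 24.2 CPM per kb (SD, n = 4) was not resolved from that of Cxcl1, at 18.5 ± 13 CPM per kb. Cxcl5 stood at 4.81 and 6.96 CPM in the control libraries, at 115, 764 and 541 CPM in KO1 and at 13.2, 96.8, 85.7 and 14.2 CPM in KO2. Every KO library lay above both control libraries, and every KO1 library above every KO2 library. Cxcl5 rose by 6.33 ± 1.27 (SE) on the log2 scale in KO1 (adjusted p = 0.00862), a call kept in every alternative, and by 3.16 ± 1.07 in KO2 (adjusted p = 0.0601), a call lost without either control library. KO2 was lower than KO1 by a log2 difference of -3.17 ± 0.81 (adjusted p = 0.037), which was not called without KO1 replicate 2 (adjusted p = 0.141). With the clones as 1 group, Cxcl5 rose by 5.31 ± 1.84 on the log2 scale (adjusted p = 0.0805), and this call was lost without KO1 replicate 3 and without either control library.

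Cxcl3, a further CXCR2 ligand, was near 0 in control cells, with 0 counts in replicate 1, which allows up to 0.0659 CPM, and 0.0305 CPM in replicate 2. Its level was 8, 41.9 and 53 CPM in KO1, and 1.31, 21.9, 0 and 0 CPM in KO2, where the zeros of replicates 3 and 4 allow up to 0.0678 and 0.0613 CPM. KO1 lay wholly above control, whereas KO2 held libraries at both ends. Against a single control count, the 3724 counts of KO1 gave a ratio of 2246 (95% interval from counting error alone, 403 to 88750), and the 568 counts of KO2 a ratio of 291 (52.1 to 11526). Of the KO2 counts, 521 came from replicate 2, and without that library the ratio was 28.5 (4.88 to 1151). These intervals leave out the spread between libraries. As Cxcl3 passed the filter only through KO libraries, its ratios describe the counts and are not read as results. The difference between the clones was not called (adjusted p = 0.326).

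Cxcl1 (KC), the attractant with the highest level per exon length in control cells, stood at 43.5 and 71.5 CPM there, at 66.0, 229 and 161 CPM in KO1 and at 15.3, 67.8, 38.2 and 17.3 CPM in KO2. Both clones overlapped control, and neither was called, with log2 fold changes of 1.40 ± 0.69 for KO1 (adjusted p = 0.17) and -0.74 ± 0.61 for KO2 (adjusted p = 0.411). KO2 was below KO1 by -2.14 ± 0.55 on the log2 scale (adjusted p = 0.0386), and not without KO1 replicate 2 (adjusted p = 0.158). Cxcl2 (MIP-2) remained low everywhere, at 0 and 0.122 CPM in control, 0.749, 1.23 and 0.325 CPM in KO1 and 0.307, 0.421, 0.0905 and 0.143 CPM in KO2. Its count ratio to control was 14.5 (5.47 to 54.2) in KO1 and 4.10 (1.46 to 16.0) in KO2, from 4 control counts. These ratios too describe the counts of a gene that passed the filter only through KO libraries.

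The summed level of these 4 attractants was 48.3 and 78.6 CPM in control, 190, 1036 and 756 CPM in KO1 and 30.1, 187, 124 and 31.6 CPM in KO2. KO1 lay above every other library, replicate 1 only just above KO2 replicate 2, and KO2 replicates 1 and 4 lay below control.

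**Figure D2:**
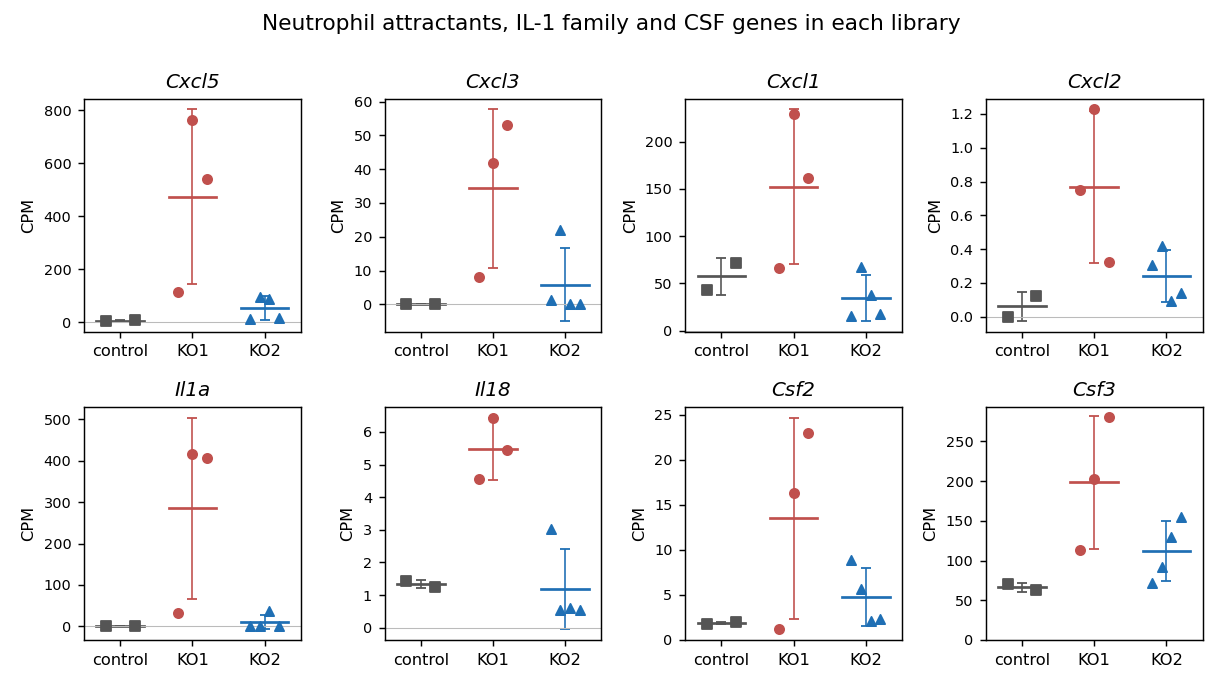
CPM in each library (points) of 8 members, with the group mean (line) and SD (bar) for 2 control, 3 KO1 and 4 KO2 libraries. KO1 replicate 1, the leftmost KO1 point in each plot, is the lowest KO1 library for Cxcl5, Cxcl3, Cxcl1, Il1a, Il18, Csf2 and Csf3, and Il1a reaches 415 CPM in KO1 against at most 0.702 in control.

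All 4 attractant genes lie on the plus strand of mouse chromosome 5 (GRCm38), in the order Cxcl5 (90759360 to 90761624), Cxcl3 (90786103 to 90789600), Cxcl1 (90891241 to 90893115) and Cxcl2 (90903871 to 90905938). Between Cxcl5 and Cxcl3 lie Ppbp and Pf4, and between Cxcl3 and Cxcl1 lies Cxcl15. Pf4 and Cxcl15 had at most 3 and 4 counts in any library. Ppbp, a CXCR2 ligand that platelets store, had a mean of 0.0329 CPM in control, 2.29 CPM in KO1 and 0.63 CPM in KO2. The RefSeq promoter table (GRCm38.p6) had entries for 28 of the 40 members, 31 promoters in all, and none for Cxcl5. The promoters of Cxcl1, Cxcl2 and Cxcl3 share GGGAATTTCC, a kappaB-type run of letters that was read from them and then searched for on both strands of the 250 bases before each start. It stood in these 3 of 31 member promoters (9.68%) and in 28 of 32851 promoters of the table (0.0852%). Its presence before the 3 genes is how it was chosen, and as paralogs in 1 cluster they are not independent. The wider kappaB consensus, which takes in these letters, was found in 9 of 31 member promoters (29.0%) and in 3.90% of all. The 9 include those of Cxcl1, Cxcl2 and Cxcl3, from which the run was read, so this share is not independent of that choice. Il11, Il1r1 and Il33 each entered with more than 1 promoter. A match is a run of letters and does not show binding. The bases before the genes are printed because they hold what the 3 neighbours share, with the run in capitals. Positions are counted from the RefSeq start, which lies 4 bases after the gene start given above for Cxcl1, 28 bases after it for Cxcl2 and 2 bases before it for Cxcl3. Each stretch begins 120 bases before the RefSeq start and ends ahead of whichever start comes first. They are chr5:90891125-90891240 for Cxcl1 (run at -71 to -62), chr5:90903779-90903870 for Cxcl2 (-97 to -88) and chr5:90785981-90786100 for Cxcl3 (-73 to -64), all on the plus strand.
Cxcl1: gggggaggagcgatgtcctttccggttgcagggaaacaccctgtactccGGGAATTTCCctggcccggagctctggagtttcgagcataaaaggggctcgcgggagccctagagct
Cxcl2: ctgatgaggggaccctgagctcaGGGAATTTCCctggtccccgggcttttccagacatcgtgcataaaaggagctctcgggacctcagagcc
Cxcl3: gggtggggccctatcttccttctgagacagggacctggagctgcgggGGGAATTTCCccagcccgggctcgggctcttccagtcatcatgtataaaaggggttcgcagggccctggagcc
The 3 genes share these letters but not their levels, since Cxcl1 had a mean of 30.7 CPM per kb of exon in control cells, Cxcl2 of 0.0295 and Cxcl3 of 0.00436 CPM per kb.

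Among the other CXC and CX3C chemokines, Cxcl16, a membrane-bound ligand of CXCR6 and a scavenger receptor, fell in both clones. Cxcl16 was at 149 and 142 CPM in control, at 77.7, 101 and 82.6 CPM in KO1 and at 26.3, 32.7, 44.4 and 28.8 CPM in KO2. The 3 groups did not overlap, with control highest and KO2 lowest. Cxcl16 fell by a log2 fold change of -0.74 ± 0.23 in KO1 (adjusted p = 0.0426), of -2.14 ± 0.21 in KO2 (adjusted p = 0.000566) and of -1.40 ± 0.19 in KO2 against KO1 (adjusted p = 0.00474). The last pair of calls was kept in every alternative, and the KO1 call was lost without either control library, without KO1 replicate 1 and without KO1 replicate 3. With the clones as 1 group the value was -1.37 ± 0.47 (adjusted p = 0.0758), not called without KO2 replicate 3 or either control library. Exons of Cxcl16 overlap those of Zmynd15 on the opposite strand, and no source used here gives the strand setting of the counting.

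Cxcl10, an interferon-inducible ligand of CXCR3, was at 10.4 and 4.64 CPM in control, at 13.7, 4.54 and 3.17 CPM in KO1 and at 0.781, 2.36, 1.47 and 1.37 CPM in KO2. All KO2 libraries lay below all others. KO2 fell by a log2 fold change of -2.34 ± 0.61 against control (adjusted p = 0.024), lost without control replicate 1, and by -2.27 ± 0.57 against KO1 (adjusted p = 0.034), lost without KO1 replicate 1. Its exons overlap those of Art3 on the opposite strand. Cxcl9, another ligand of CXCR3, was at 0 and 0.0305 CPM in control, at 0.367, 0.166 and 0.135 CPM in KO1 and at 0, 0.0421, 0.136 and 0.286 CPM in KO2. These levels rest on 1 count in control, 33 in KO1 and 21 in KO2, and its call in KO1 was kept in 2 of 9 alternatives. Cx3cl1 (fractalkine), a membrane-bound chemokine for monocytes and NK cells, was called nowhere, at 19.5 and 20.9 CPM in control, 21.1 to 59.3 CPM in KO1 and 8.17 to 57.8 CPM in KO2. Cxcl12, the ligand of CXCR4, had at most 1 count in any library.

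Of 7 CC chemokines, Ccl5 and Ccl20 were tested, and neither was called in KO1. Ccl5 (RANTES), which draws T cells and monocytes, was at 7.09 and 4.61 CPM in control, at 22.9, 14.4 and 12.1 CPM in KO1 and at 0.893, 1.56, 3.17 and 6.07 CPM in KO2. KO1 lay above every other library, and KO2 overlapped control. Ccl5 was lower in KO2 than in KO1 by -2.48 ± 0.57 on the log2 scale (adjusted p = 0.0259), a call kept in every alternative. Against control, its value was 1.49 ± 0.70 for KO1 (adjusted p = 0.155) and -0.99 ± 0.62 for KO2 (adjusted p = 0.275). Ccl20, the ligand of CCR6, was at 5.47 and 4.33 CPM in control, at 1.47, 10.1 and 2.22 CPM in KO1 and at 0.753, 0.0842, 1.36 and 0.184 CPM in KO2. KO2 lay below every other library, with a log2 fold change of -3.01 ± 0.95 against control (adjusted p = 0.047), lost without either control library, and -2.91 ± 0.89 against KO1 (adjusted p = 0.0633), lost without KO1 replicate 2, KO2 replicate 1 or KO2 replicate 4. The monocyte attractants Ccl2 and Ccl7 had at most 11 and 1 counts in any library, Ccl9 at most 17, Ccl17 at most 6, and Ccl22 had 0.

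Among the growth factors of myeloid cells, Csf2 and Csf3 rose and Il34 fell in KO1, and none of the 5 was called in KO2 against control (edgeR, with 0 at an unadjusted p under 0.05, and 0 by DESeq2). Csf3 (G-CSF), the growth factor of neutrophils, was at 70.5 and 62.4 CPM in control, at 113, 202 and 280 CPM in KO1 and at 71.8, 91.4, 129 and 155 CPM in KO2. Every KO library was above both control libraries, the nearest by a small margin. Csf3 rose in KO1 by 1.58 ± 0.41 on the log2 scale (adjusted p = 0.0228), a call lost without either control library, with 0.75 ± 0.38 in KO2 (adjusted p = 0.181) and a difference between clones of -0.83 ± 0.32 (adjusted p = 0.123). Csf2 (GM-CSF) was at 1.78 and 1.95 CPM in control, at 1.23, 16.3 and 23 CPM in KO1 and at 8.93, 5.64, 2.08 and 2.31 CPM in KO2. KO1 replicate 1 lay below control and the other KO1 libraries well above it. The KO1 value was 2.85 ± 1.08 (adjusted p = 0.0862), lost without KO1 replicate 2, without KO1 replicate 3 and without either control library, and the KO2 value was 1.34 ± 0.98 (adjusted p = 0.35).

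Il34 and Csf1 encode the ligands of CSF1R, the receptor of macrophages. Il34 was at 26.3 and 32.9 CPM in control, at 15.5, 12 and 12.5 CPM in KO1 and at 30.3, 26.7, 14.3 and 19.5 CPM in KO2. KO1 lay below control, and KO2 overlapped both. Il34 fell in KO1 by a log2 fold change of -1.15 ± 0.31 (adjusted p = 0.0262), lost without either control library, and was higher in KO2 than in KO1 by 0.77 ± 0.27 (adjusted p = 0.092), a call kept in 4 of 14 alternatives and lost without any KO1 library or KO2 replicate 1, 2 or 4. Csf1 (M-CSF) was called nowhere. It was at 134 and 148 CPM in control, at 284, 312 and 347 CPM in KO1 and at 147, 251, 45.9 and 169 CPM in KO2, with log2 fold changes of 1.15 ± 0.52 for KO1 (adjusted p = 0.139) and -1.04 ± 0.42 for KO2 against KO1 (adjusted p = 0.135). KO1 did not overlap control for Csf1, and KO2 replicate 3 was the lowest library. Kitl, the ligand of the KIT receptor, ranged from 23.9 to 68.5 CPM and was called nowhere. Exons of Csf2 and Il34 overlap annotated genes on the opposite strand.

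Il1a, which encodes an alarmin that also signals at the membrane, was low in control cells and among the highest members per exon length in KO1. Il1a was at 0.351 and 0.702 CPM in control, at 32.1, 415 and 407 CPM in KO1 and at 2.23, 0.674, 36.7 and 2.27 CPM in KO2. KO1 lay above control in every library, replicate 1 being far below the others, while KO2 replicate 2 lay between the control libraries and KO2 replicate 3 reached the level of KO1 replicate 1. Il1a rose in KO1 by 9.11 ± 2.26 on the log2 scale (adjusted p = 0.0192), lost without either control library. The value was 4.36 ± 1.89 in KO2 (adjusted p = 0.125). KO2 was lower than KO1 by -4.75 ± 1.30 (adjusted p = 0.0459), lost without KO1 replicate 2 or 3. Exons of Il1a overlap Gm14023 on the opposite strand.

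Il18, whose product is cut to its active form by caspase-1, was at 1.43 and 1.25 CPM in control, at 4.54, 6.44 and 5.44 CPM in KO1 and at 3.01, 0.547, 0.611 and 0.531 CPM in KO2. KO1 was above every other library, and KO2 replicate 1 alone among the KO2 libraries was above control. Il18 rose in KO1 by 2.03 ± 0.78 on the log2 scale (adjusted p = 0.0892) and was lower in KO2 than in KO1 by -2.21 ± 0.61 (adjusted p = 0.0466). The KO1 call was lost with any 1 control or KO1 library left out, and the difference between clones without KO1 replicate 2 or 3. Il1b, the other agonist of the IL-1 receptor, was called nowhere, at 1.78 and 2.10 CPM in control, 0.876 to 3.91 CPM in KO1 and 0.0842 to 2.04 CPM in KO2, and its exons overlap Il1bos on the opposite strand. Il33, the ligand of ST2 (Il1rl1), never exceeded 0.487 CPM. The summed level of the family was 3.62 and 4.06 CPM in control, 37.6, 426 and 415 CPM in KO1 and 5.88, 1.35, 39.8 and 4.27 CPM in KO2.

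Leukocytes are a main source of several of these proteins in tissue, so their markers were measured in the same libraries. Of 17 leukocyte markers, Adgre1, S100a9, Tyrobp and Nkg7 were at 0 in every library, 3 passed the filter, and Ptprc (CD45) did not exceed 0.905 CPM. The summed level of the list was 7.35 to 10.6 CPM in control, 23.8 to 47.9 CPM in KO1 and 13.4 to 36.7 CPM in KO2. Cd14 and Cd68 led it, and Cd14 rose in KO cells by 1.60 on the log2 scale (adjusted p = 0.0132). Cd68 rose in KO1 by 2.39 on the log2 scale (adjusted p = 0.0958), and Ptprc was higher in KO2 than in KO1 by 3.72 (adjusted p = 0.0972). The part of these markers in the results above was not tested. Of 8 fibroblast markers, Col3a1, Dcn, Lum and Thy1 were at 0 in every library, and the list summed to 20.3 to 25.9 CPM in control, 21.6 to 40.6 CPM in KO1 and 11.8 to 47.6 CPM in KO2, with Pdgfra the highest. Col1a1 fell in KO cells by a log2 fold change of -3.00 (adjusted p = 0.0132). Col1a2 rose in KO1 by 3.02 (adjusted p = 0.0644) and was lower in KO2 than in KO1 by -3.44 (adjusted p = 0.0321). The 4 endothelial markers summed to at most 1.68 CPM. At these low levels, Cdh5 was called higher in KO2 than in control (5.48, adjusted p = 0.0317) and than in KO1 (7.81, adjusted p = 0.0208). In a bulk library, fewer cells that express a gene and less RNA per cell cannot be told apart.

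In the IL-6 family, Il6 itself had at most 6 counts in any library. Lif, the member of the family with the highest level per exon length, was at 229 and 214 CPM in control, at 211, 267 and 246 CPM in KO1 and at 88.6, 80.6, 180 and 185 CPM in KO2. KO2 lay below every other library, with replicates 1 and 2 lowest. Lif was called between the clones (log2 difference -0.85 ± 0.29, adjusted p = 0.0887, lost without any KO1 library or KO2 replicate 1 or 2) and not in KO2 against control (-0.73 ± 0.33, adjusted p = 0.137). Il11, a gp130 cytokine linked to bone metastasis, was at 3.91 and 2.10 CPM in control, at 0.542, 0.332 and 0.406 CPM in KO1 and at 2.29, 1.81, 0.520 and 2.72 CPM in KO2. KO1 lay below control, and KO2 replicate 3 lay among the KO1 libraries. Il11 fell in KO1 by a log2 fold change of -2.80 ± 0.62 (adjusted p = 0.0127), lost without control replicate 1, and was higher in KO2 than in KO1 by 2.08 ± 0.56 (adjusted p = 0.043), lost with any KO1 library left out.

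Il23a encodes p19, the subunit particular to IL-23, which pairs with p40 to act on T cells and innate lymphoid cells. Il23a had the highest level per exon length of all members in control cells. Il23a was at 198 and 229 CPM in control, at 46.6, 44.5 and 63.9 CPM in KO1 and at 61.4, 36.3, 106 and 129 CPM in KO2. All 7 KO libraries lay below control, and the clones overlapped. Il23a fell in KO1 by a log2 fold change of -2.05 ± 0.43 (adjusted p = 0.0105), a call kept in every alternative, and in KO2 by -1.36 ± 0.40 in KO2 (adjusted p = 0.0376), lost without either control library. With the clones as 1 group it was -1.61 ± 0.40 (adjusted p = 0.0244), and the difference between clones was 0.69 ± 0.37 (adjusted p = 0.253).

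Tslp, an epithelial cytokine that acts on dendritic cells, was at 29.7 and 22.3 CPM in control, at 60.2, 42.0 and 41.8 CPM in KO1 and at 43.7, 105, 308 and 63.4 CPM in KO2. Every KO library was above both control libraries, and KO2 replicate 3 was far above the rest. Tslp rose in KO2 by 2.32 ± 0.72 on the log2 scale (adjusted p = 0.0452), lost without either control library, with a value of 0.88 ± 0.69 in KO1 (adjusted p = 0.387). The difference between clones was 1.44 ± 0.59 (adjusted p = 0.141). Il15, a growth factor of NK and memory T cells, ranged from 2.83 to 9.05 CPM and was called nowhere.

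In the TNF family, Tnfsf9 (4-1BB ligand), which costimulates T cells, was at 3.51 and 3.08 CPM in control, at 5.02, 7.43 and 9.74 CPM in KO1 and at 20.6, 12.9, 11.6 and 15 CPM in KO2. The groups did not overlap, with control lowest and KO2 highest. Tnfsf9 rose by 1.16 ± 0.36 on the log2 scale in KO1 (adjusted p = 0.0452), by 2.19 ± 0.37 in KO2 (adjusted p = 0.00438) and by 1.02 ± 0.30 in KO2 against KO1 (adjusted p = 0.0548). With the clones as 1 group it was 1.83 ± 0.51 (adjusted p = 0.037), lost without either control library. The KO2 call was kept in every alternative. The KO1 call was lost without either control library or KO1 replicate 3, and the difference between clones without KO1 replicate 1 or 2 or KO2 replicate 1. Exons of Tnfsf9 overlap Gm11110 on the opposite strand. Tnf had at most 13 counts in any library, and Tnfsf10 (TRAIL), called nowhere, did not exceed 1.69 CPM. Tnfsf12 (TWEAK) had at most 3 counts, and its exons overlap those of the read-through gene Tnfsfm13 on the same strand, so that its reads could be left uncounted.

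Of the 5 receptors in the set, 3 were called lower in at least 1 clone, with both clones compared with the same control libraries. In KO1 2 of 5 were called lower, beside 15.7% of all genes tested, and in KO2 3 of 5, beside 15%. Il6st (gp130), the signalling subunit of the whole IL-6 family, was at 223 and 237 CPM in control, at 124, 118 and 105 CPM in KO1 and at 101, 161, 102 and 189 CPM in KO2. Control lay above all 7 KO libraries, and the clones overlapped. Il6st fell in KO1 by a log2 fold change of -0.99 ± 0.26 (adjusted p = 0.0254), lost without either control library, and in KO2 by -0.73 ± 0.25 (adjusted p = 0.0607), which was also lost without KO2 replicate 1 and when KO2 and control alone were fitted. With the clones as 1 group it was -0.84 ± 0.24 (adjusted p = 0.0391).

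Osmr, which joins gp130 in the receptors of oncostatin M and IL-31, was at 16.6 and 19.5 CPM in control, at 12.4, 14.3 and 13.6 CPM in KO1 and at 5.69, 7.41, 7.24 and 7.30 CPM in KO2. The groups did not overlap, with control highest and KO2 lowest. Osmr fell in KO2 by -1.38 ± 0.21 on the log2 scale against control (adjusted p = 0.003) and by -0.96 ± 0.19 against KO1 (adjusted p = 0.0175), both kept in every alternative. In KO1 it was not called (adjusted p = 0.208).

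Il1r1, the receptor through which IL-1 alpha and IL-1 beta signal, was at 25.5 and 27.5 CPM in control, at 7.59, 11.1 and 11.6 CPM in KO1 and at 7.64, 5.94, 15.1 and 7.38 CPM in KO2. No KO library reached the control level, and the clones overlapped. Il1r1 fell in KO1 by a log2 fold change of -1.40 ± 0.38 (adjusted p = 0.0287), lost without either control library, and in KO2 by -1.55 ± 0.36 (adjusted p = 0.0146), lost without control replicate 2. With the clones as 1 group it was -1.48 ± 0.32 (adjusted p = 0.0134). The ligand gene Il1a and the receptor gene Il1r1 thus had called values of opposite sign in KO1. The TNF receptors were called nowhere. Tnfrsf1a ranged from 49.4 to 74.8 CPM over all libraries, and Tnfrsf1b was at 87.6 and 88.3 CPM in control, 56.0 to 66.6 CPM in KO1 and 35.6 to 88.7 CPM in KO2.

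**Figure D3:**
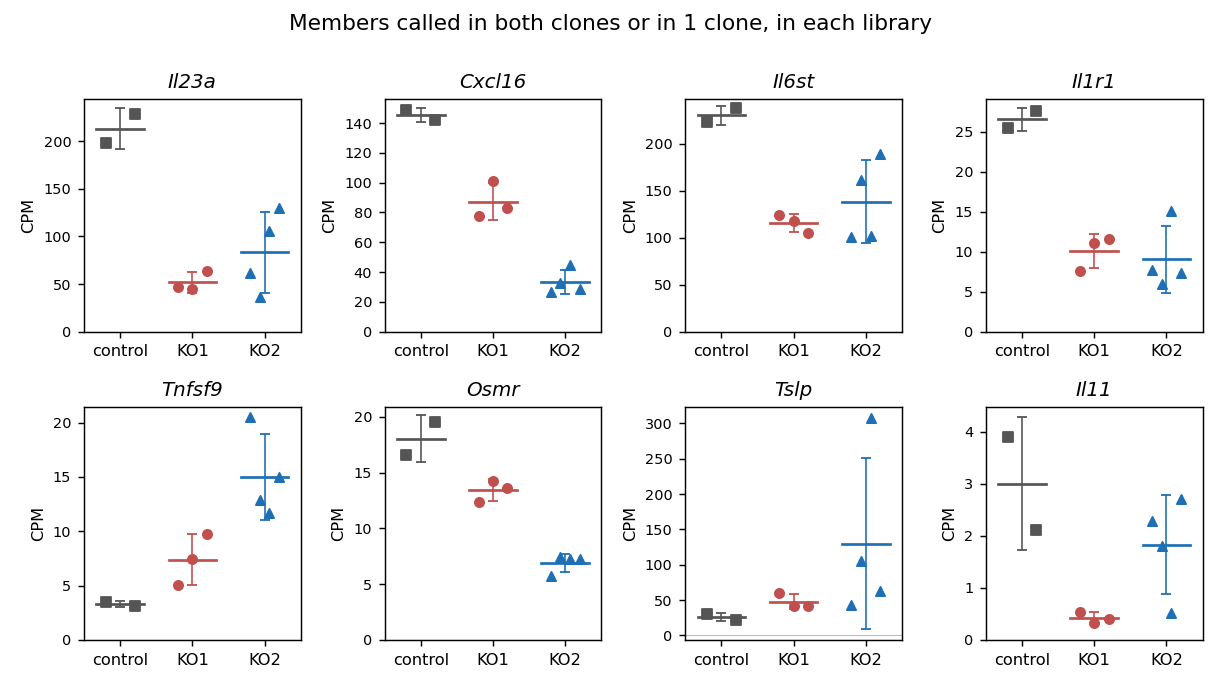
CPM in each library (points) of 8 members, with the group mean (line) and SD (bar) for 2 control, 3 KO1 and 4 KO2 libraries. Il23a, Cxcl16, Il6st and Il1r1 were lower and Tnfsf9 was higher than both control libraries in all 7 KO libraries, Osmr and Tslp were called in KO2 alone, and Il11 was called in KO1 alone.

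The order of the members was taken per kb of exon. In control cells, Il23a stood highest at 95 CPM per kb, followed by Lif at 50.9, Cxcl16 at 48.1, Csf3 at 47.0 and Cxcl1 at 30.7 CPM per kb. The SD of Cxcl1 was 10.6 CPM per kb, so its order beside Tnfrsf1a at 26.8 and Csf1 at 26.7 CPM per kb was not resolved, nor were Lif, Cxcl16 and Csf3 far apart. In KO1 the order was led by Cxcl5 at 254, Il1a at 144 and Csf3 at 140 CPM per kb, members whose KO1 libraries spread widely. In KO2 it was led by Tslp at 97.7 and Csf3 at 79.1 CPM per kb, followed by Il23a at 37.0 CPM per kb. The lead of Tslp in KO2 rested on replicate 3.

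**Figure D4:**
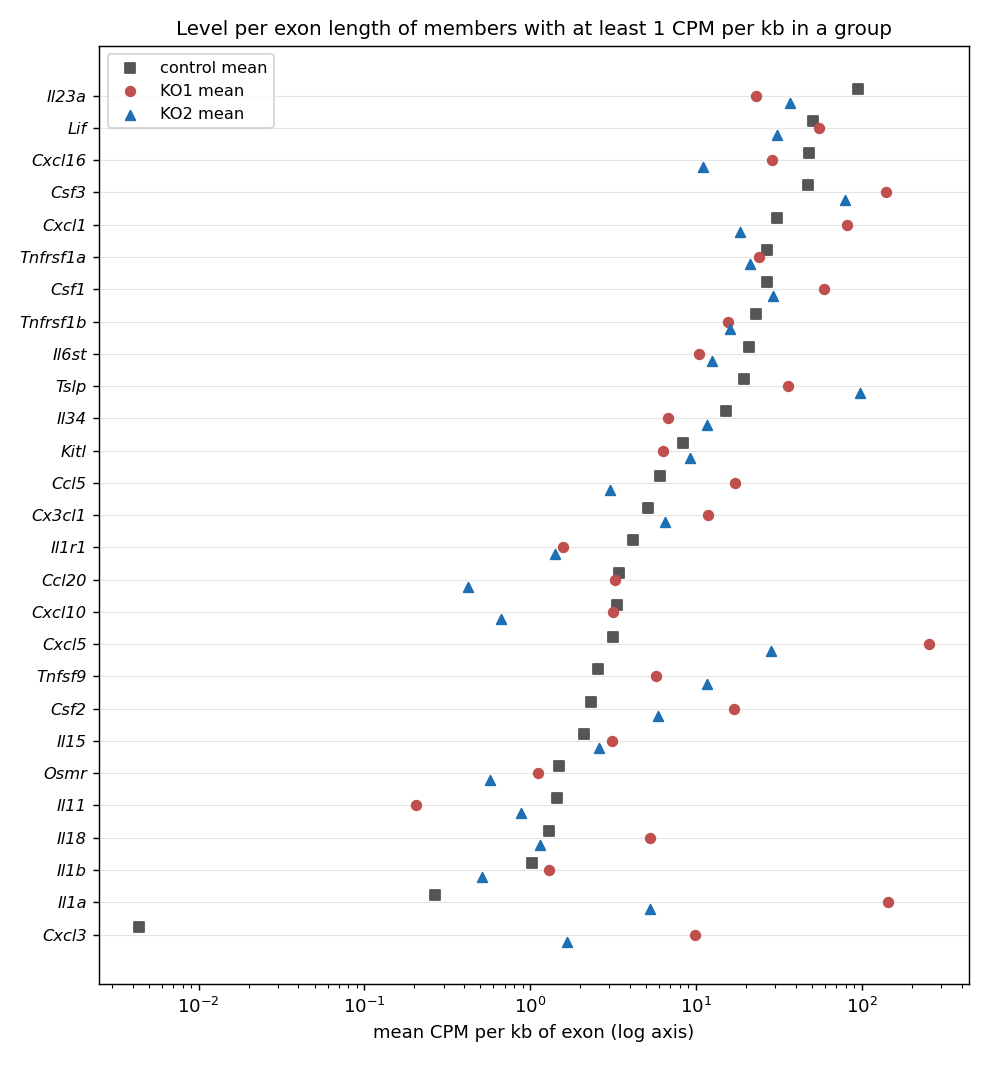
Mean CPM per kb of exon (log axis) in control, KO1 and KO2 of the 27 members that reached 1 CPM per kb in at least 1 group, ordered by the control mean. Il23a leads in control at 95, Cxcl5 in KO1 at 254 and Tslp in KO2 at 97.7 CPM per kb, and the KO1 points of Cxcl5, Il1a and Cxcl3 stand farthest to the right of their control points. Cxcl3 and Il1a reached 1 CPM per kb only in KO cells.

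The receptors and decoys that answer the members were taken as a list of 39 further genes, of which 18 passed the filter. In KO cells 3 rose (Il11ra1, Il18rap and Il1rl1) and 1 fell (Ccr10). In KO1 2 rose and 2 fell, and in KO2 4 rose and 1 fell. Il1rl1, counted among those that rose in KO cells and in KO2, had 6 control counts in all. It passed the filter only through KO libraries, so its calls are not read as results. The genes called in KO cells, KO1 and KO2 are 22.2, 22.2 and 27.8% of the 18 tested, beside 22.6, 31.6 and 31.4% of all genes tested. Il18rap, the accessory chain of the IL-18 receptor, had a mean of 7.45 ± 2.06 CPM (SD, n = 2) in control and 34.0 ± 16.5 CPM (n = 7) in KO cells, and rose by 2.19 ± 0.81 on the log2 scale (SE, adjusted p = 0.0976). KO1 replicate 1, at 3.09 CPM, lay below both control libraries (5.99 and 8.91 CPM), and Il18rap was not called in KO1 (adjusted p = 0.156). Its partner chain Il18r1, chosen after its values were seen like the receptors that follow, did not exceed 0.0797 CPM. Receptors of the neutrophil attractants were near 0, with Cxcr1 at 0 in 8 of 9 libraries and Cxcr2 at 0.678 CPM or less. Csf3r, the receptor of G-CSF, did not exceed 0.0271 CPM, and Il23r did not exceed 0.127 CPM. Crlf2, a chain of the TSLP receptor, was at 17.3 to 43.6 CPM, while its partner Il7r was at 0 in every library. Cxcr3, the receptor of Cxcl9 and Cxcl10, was at 11.5 and 6.22 CPM in control, at 1.63, 2.45 and 14.7 CPM in KO1 and at 40.6, 35.0, 45.6 and 48.3 CPM in KO2. It rose in KO2 by 2.25 ± 0.80 on the log2 scale against control (adjusted p = 0.0702) and by 2.76 ± 0.69 against KO1 (adjusted p = 0.035). Calls of these receptors, of the signalling genes below and of the markers are given without the checks in the alternatives that the members had.

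All 34 genes of the signalling list, from adaptors and NF-kappaB subunits to JAK kinases and feedback inhibitors, passed the filter. In KO cells 2 rose and 5 fell (20.6%, beside 22.6% of all genes tested). In KO1 5 rose and 6 fell, and in KO2 2 rose and 9 fell, 32.4% of the list in each clone beside 31.6 and 31.4% of all genes. The direction of the 9 that fell in KO2 was called in 15% of all genes. Between the clones, 2 were higher and 9 lower in KO2, 32.4% of the list beside 19.6% of all genes. Those lower in KO2 than in KO1 were Bcl3, Cish, Icam1, Irak1, Map3k14, Nfkbie, Nfkbiz, Tnip1 and Zc3h12a, a direction called in 9.43% of all genes. Traf1, an adaptor of TNF receptors and itself a target of NF-kappaB, fell from 199 ± 16.8 CPM (SD, n = 2) in control to 37.4 ± 3.78 CPM in KO1 (n = 3) and 80.0 ± 20.7 CPM in KO2 (n = 4), with a log2 fold change of -1.69 ± 0.37 over both (SE, adjusted p = 0.0155). Traf2, its binding partner, fell by a log2 fold change of -0.81 ± 0.13 (adjusted p = 0.00468), and Relb, a subunit of the non-canonical NF-kappaB pathway, by -1.50 ± 0.32 (adjusted p = 0.0142). Map3k14 (NIK), the kinase of that pathway, fell from 52.4 ± 5.99 CPM in control to 32.9 ± 7.92 CPM in KO cells (log2 fold change -0.67 ± 0.24, adjusted p = 0.0904), and Jak1 from 214 ± 10.3 to 139 ± 34.5 CPM (-0.63 ± 0.22, adjusted p = 0.0865), with KO2 replicate 2 between the control libraries. The genes that rose were Tnfaip3 (A20), an inhibitor of NF-kappaB signalling, by 1.10 ± 0.20 on the log2 scale (adjusted p = 0.00712), and Irak1, a kinase of the IL-1 receptor pathway, by 0.61 ± 0.21 (adjusted p = 0.0783). The NF-kappaB subunit gene Nfkb1 was between 87.2 and 184 CPM in all libraries and was called nowhere, and neither were Nfkb2 and Rel. Rela, a further subunit gene, fell in KO1 by a log2 fold change of -0.66 ± 0.21 (adjusted p = 0.0447). Nfkbiz rose in KO1 by 1.03 ± 0.27 (adjusted p = 0.0252). Icam1 rose in KO1 by 2.47 ± 0.95 (adjusted p = 0.0914), with -4.53 ± 0.83 in KO2 against KO1 (adjusted p = 0.0128). Bcl3 fell in KO2 by -2.96 ± 0.80 (adjusted p = 0.027).

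MaTAR25 binding to chromatin was measured in 4T1 cells by ChIRP, in which tiled oligos pull down the RNA with the DNA it touches. The deposited lists give peaks for the even oligos, the odd oligos and the total pool, called over pooled replicates, so no replicate test can be made. In the total-pool list, 17 of the 40 members (42.5%) had a peak inside the gene, beside 51.5% of 14949 tested genes with a position. Member genes were shorter, with a median of 6652 bp beside 18653 bp. Of the 31 members tested, 41.9% had a peak inside the gene, and their median length was 10363 bp. Peaks in all 3 lists were found in 8 members (20%), beside 30.6% of the tested genes. By the promoter nearest to each peak, 57.5% of the 40 members had a peak in the total-pool list. The share was 51.6% for the 31 members tested and 59.9% for the tested genes. Cxcl1, Cxcl2, Cxcl3 and Cxcl5, all short genes, had no peak inside the gene in any list. Cxcl3 had the promoter nearest to a peak in the odd list (3047 bp from its start) and in the even list (3887 bp). The highest member peak lay in Cx3cl1 on chromosome 8 from 94779727 to 94780351 (GRCm38), with a score of 753.5 and rank 186 of 76806 in the total-pool list. Il1r1, a long gene that spans 40225080 to 40317257 on chromosome 1, held 8 peaks of that list. The highest of them had a score of 155 and rank 9274, and the part of gene length in their number was not tested. Cx3cl1, as given above, was called in no comparison.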

How the data were processed

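Reads of poly(A) RNA, sequenced from 1 end, were aligned by the authors to GRCm38 (STAR) and assigned to GENCODE vM5 genes (HTSeq), and the deposited values are raw counts. Between 33.9 and 37.0% of the counts of a library belonged to no gene and were left out. The ChIRP peak score is the one HOMER gave the authors against the Ppib pulldown. The list of MMTV-Neu-NDL cells was not used here.

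Counts were tested in R 4.3.3 with edgeR 4.0.16 (TMM, filterByExpr, quasi-likelihood test). KO against control was fitted as 2 groups, and the clones and their difference as 3 groups over all 9 libraries. The biological coefficient of variation was 42.0 and 32.5%. The study used DESeq2 at the same threshold, and DESeq2 1.42.0 is an alternative here. Alternatives were a threshold of 0.05, RLE, DESeq2, 2 other filters, the replicate block, other groupings and leaving out each library. Ratios against under 10 control counts have exact binomial intervals, which cover counting error only, and a count of 0 allows up to 3. These ratios, also with each KO2 library left out for Cxcl3, and the counts without such members were added after seeing the data.

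Members and gene lists were chosen with earlier results of these data known. Library values are given for every member called in a comparison. Exon lengths and positions came from GENCODE vM21, peaks inside a gene overlapped it by at least 1 bp, and promoters came from RefSeq.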

Additional observations from a re-analysis of the deposited data

Results flagged for a closer look

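In groups of 4 to 10 libraries, which here means KO2 alone, a library was singled out when its gap to the nearest other took most of the range of the group, past Dixon's 95% critical value. Of 31 members checked, 4 had such a library, and chance alone singles out about 1 in 20. Cxcl3 was at 21.9 CPM in KO2 replicate 2 and Il1a at 36.7 CPM in KO2 replicate 3, both above the other KO2 libraries. KO2 replicate 1 was above the others for Il18, at 3.01 CPM, and below them for Osmr, at 5.69 CPM.

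The test of KO2 against KO1 (edgeR's quasi-likelihood test, adjusted p below 0.1) called 13 members. Those lower in KO2 were Il1a (log2 difference -4.75), Cxcl5 (-3.17), Ccl20 (-2.91), Ccl5 (-2.48), Cxcl10 (-2.27), Il18 (-2.21), Cxcl1 (-2.14), Cxcl16 (-1.40), Osmr (-0.96) and Lif (-0.85). Those higher in KO2 were Il11 (2.08), Tnfsf9 (1.02) and Il34 (0.77). Each clone is 1 clone, so a difference between clones cannot be told apart from a difference between their deletions.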

How the results depend on the processing

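Members called in KO against control numbered 6, with 13 by DESeq2, 13 as the average of the clones in the 3-group fit, 3 with the replicate block and 0 to 9 without each library. In KO1 they numbered 15, and 2 to 12 without each library. In KO2 they numbered 10, and 4 to 14 without each library. In KO2 against KO1 they numbered 13, and 4 to 15 without each library. Over all genes, 3392 were called in KO against control, 2235 at 0.05, 1952 with the replicate block and 462 to 3976 without each library. KO1 had 4750, with 7752 when only its groups were fitted and 1482 to 3643 without each library, and KO2 had 4724, with 1366 to 5352 without each library. KO2 against KO1 had 2944, with 1643 at 0.05, 1736 with the replicate block, 1932 when only the clones were fitted and 874 to 4077 without each library. Where a control library was left out, the remaining 1 was assumed to vary like the other groups. The cause of the other shifts was not tested.

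Replicate numbers are shared between groups, but same-numbered libraries did not deviate together (correlations of deviations from -0.149 to 0.0429), so the numbers do not pair the libraries. Of the member results that were called or at least 0.5 in size on the log2 scale, none changed sign in any alternative. Of 332 values of the 25 results nearer to 0, 26 had the opposite sign. With the replicate block, the calls of Cxcl5, Cxcl16 and Tnfsf9 in KO against control were lost, as were those of Cxcl9, Csf2 and Tnfsf9 in KO1, of Cxcl10, Ccl20 and Tslp in KO2 and of Cxcl10, Ccl20, Il34, Il11 and Tnfsf9 between the clones. For the 12 members under 1 CPM in every group, differences were limited by depth.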
